A study of Mus musculus with 24 samples.

Results

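Among 24 mouse liver libraries, 18 came from mice of a steatohepatitis model and 6 from normal controls, and the 18 model libraries are described here as 2 sets of 9. The labels give no such division. The sets were chosen from measured values, on principal component 2 of log2 CPM (read counts scaled to a common library size) and on the levels of bile duct and cytochrome P450 genes. Set A holds model mice 2, 3, 4, 9, 13, 15, 16, 17 and 18, and set B holds model mice 1, 5, 6, 7, 8, 10, 11, 12 and 14. Because every gene entered that choice, the differences between the sets below are descriptions of these 18 libraries, and gene levels in them carry no p-values. The 6 controls serve as a reference level.

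Both sets carry the same label, model mice of steatohepatitis, a state in which the liver stores fat and is inflamed. The labels name liver tissue for every library and give no strain, sex, age, diet, duration or treatment, so none of these can be set against the sets. Each mouse gave 1 library of oligo(dT)-captured RNA, and total counts ran from 31600129 to 58413267. Levels are CPM on library sizes scaled by TMM (trimmed mean of M values), and 17456 genes passed the expression filter. A ratio between the sets is that of the medians with 0.1 CPM added to each. It was computed for every filtered gene, and the median log2 ratio over all of them was 0.00 with set A over set B.

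Bile ducts are lined by cholangiocytes, epithelial cells with keratins, tight junction proteins and ion channels that hepatocytes largely lack. In injured livers small ductules with such markers can appear around the portal tracts, a picture known as ductular reaction, and stressed hepatocytes can take on some of the same genes. Cytochromes P450 are the oxidases by which hepatocytes clear drugs, steroids and fatty acids, and the nuclear receptor CAR, encoded by Nr1i3, drives several of the Cyp2b and Cyp2c genes.

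On the principal components of all 24 libraries, component 1 held 59.6% of the variance and set controls apart from model mice. Component 2 held 9.19%, and 18 of 18 model mice lay on the side of their own set. The sets were chosen on component 2 of log2 CPM, so this count is no independent support for them. The step between the sets on it, from -0.51 for model mouse 17 of set A to -7.79 for model mouse 5 of set B, measured 7.28, against a largest step of 10.4 within set A and 5.82 within set B. The step at the border was thus smaller than the widest step inside set A and larger than the widest inside set B. When components were computed from the 18 model libraries alone, component 1 (35.0% of variance) put 16 of 18 mice on their set's side, with model mice 9 and 5 crossing, and component 2 (12.9%) put 10.

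**Figure D1:**
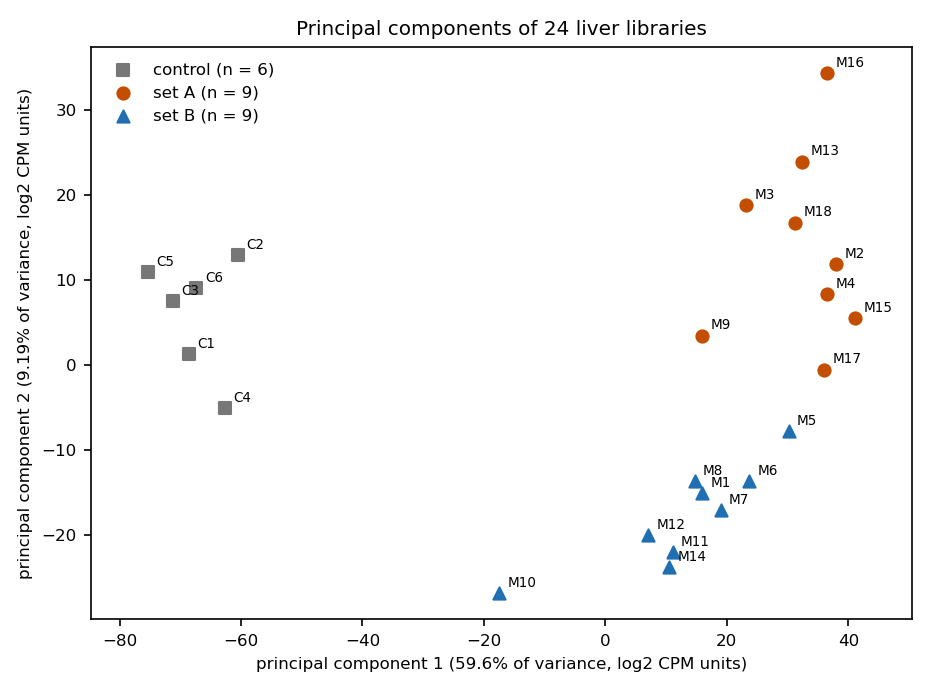
Principal components 1 and 2 of centred log2(CPM + 0.5) over 17456 genes for 6 controls (squares), set A (circles) and set B (triangles), with each library named. Set A spans -0.51 to 34.4 on component 2 and set B -26.8 to -7.79, and model mouse 10 lies nearest the controls on component 1.

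Library depth overlapped between the sets. Totals averaged 41963899 ± 8116993 counts in set A and 39533791 ± 6328038 in set B (SD, n = 9 each), a difference of 2430109 counts (exact permutation test over 48620 divisions, two-sided, p = 0.492). Mitochondrial transcripts took 4.11 to 8.09% of counts in set A and 5.11 to 6.47% in set B. Y-linked Ddx3y was read in every library, at 17.9 to 47.9 CPM in set A and 23.9 to 43.2 CPM in set B. TMM factors had medians of 1.12 in set A and 1.01 in set B, and with library totals alone the median log2 ratio of all genes shifts to 0.10 towards set A. Model mouse 10 stood apart within set B at -17.5 on component 1, where the other model mice lay between 7.07 and 41.2.

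More genes were higher in set A than in set B. For 249 genes (1.43% of 17456) the lowest mouse of set A exceeded the highest of set B, and for 32 genes (0.183%) the reverse held. By medians alone, 413 genes (2.37%) were at least 2-fold higher in set A and 91 (0.521%) in set B. These counts moved with the filter and the added value, to 205 and 59 at a mean of at least 1 CPM and to 183 and 43 with 0.5 CPM added. The 32 genes without overlap became 16 with library totals alone. The ratios were also larger on the set A side: the genes without overlap had a median ratio of 2.26 where set A was higher and of 1.48 where set B was. These 2 groups differ in level, since 102 of the 249 but 21 of the 32 had a median of at least 5 CPM in the higher set. The part of level in the larger ratios was not tested. Few mice set the border. Model mice 3, 17 and 9 were the lowest of set A for 80, 61 and 45 of the 249 genes, and model mice 6 and 5 the highest of set B for 97 and 70. The count on the set B side rests on such mice: leaving out model mouse 5, 9, 3 or 17 in turn gave 108, 91, 66 and 59 genes in place of 32. The count on the set A side ran from 254 to 368 when any one model mouse was left out. With levels unchanged, leaving out a mouse can raise counts of genes without overlap but cannot lower them.

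The control level lay beside set B for most genes that stood higher in set A. Of the 249 genes, the control median was inside the range of set B for 135, below it for 74, between the sets for 12, inside the range of set A for 22 and above it for 6. Of the 32 genes higher in set B, the control median lay inside the range of set B for 13, above it for 7, inside the range of set A for 6, below it for 5 and between the sets for 1. Over all model mice against controls, the comparison that the labels define, 5445 genes were called higher (31.2%) and 5035 lower (28.8%) by edgeR's quasi-likelihood test with Benjamini-Hochberg adjusted p below 0.05. With library totals alone the counts were 9404 and 1564. Of the 249 genes, 140 were called higher, 9 lower and 100 neither. Of the 32, 5 were called higher, 12 lower and 15 neither.

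The 4 genes given with the sets as their markers did not all go the same way. Their positions are in GRCm39. Cftr (chromosome 6, 18170686 to 18322767) encodes the chloride channel of duct cells, and its lowest, median and highest levels were 0.327, 0.769 and 1.53 CPM in set A, 0.0273, 0.118 and 0.220 in set B and 0.0322, 0.115 and 0.284 in controls. The sets did not overlap, set B lay at the control level, and 3 counts amount to 0.0488 to 0.106 CPM in these libraries, so the values of set B and controls rest on few reads. The ratio was 3.98 on 360 counts in set A and 44 in set B. H19 (chromosome 7, 142129262 to 142133957), an imprinted noncoding RNA abundant in fetal liver, had 1.25, 2.70 and 6.53 CPM in set A, 0.0833, 0.417 and 1.29 in set B and 0.0294, 0.0499 and 0.223 in controls. Its ratio was 5.42, and the sets met only where the lowest mouse of set A, model mouse 3, was just under the highest of set B, model mouse 6.

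Ly6d (chromosome 15, 74633905 to 74635469), a small membrane-anchored surface protein of the Ly6 family, reached 95.3, 142 and 213 CPM in set A and 17.9, 56.4 and 98.1 in set B, against 1.45, 1.54 and 2.36 in controls. Every model mouse was above every control for Ly6d, and the ratio between the sets was 2.52 with an overlap of model mice 17 and 5 alone. Krt23 (chromosome 11, 99368800 to 99383963), a type I keratin, went against the other markers, with 6.28, 9.56 and 16.8 CPM in set A, 10.5, 15.2 and 34.5 in set B and 1.17, 1.42 and 2.26 in controls. It was 1.58-fold higher in set B by medians, the ranges overlapped, and the highest value belonged to model mouse 10. Over all model mice Krt23 rose (log2 fold change 3.15, SE 0.31, edgeR adjusted p = 6.97e-09), as did Ly6d (5.95, SE 0.54, edgeR adjusted p = 2.59e-09).

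Bile duct genes had the highest median ratio of the lists on the set A side. Of 25 listed, 24 passed the filter. Of those 24, 17 were higher in set A without overlap, 16 were at least 2-fold higher there, and none was 2-fold higher in set B, shares that stand beside 1.43% and 2.37% of all filtered genes and that the choice of the sets already used. The list's median log2 ratio was 1.65, against 0.00 over all genes. Its summed level had a lowest, median and highest value of 381, 511 and 650.2 CPM in set A, 212, 239 and 333 in set B and 157, 185 and 220.0 in controls, so the sums did not overlap either. The lowest sum of set A was that of model mouse 3 and the highest of set B that of model mouse 6. In bulk tissue, more cells of a type and more RNA per cell cannot be told apart, here and in every cell type list below.

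Structural genes of the duct epithelium were several-fold higher in set A. Epcam (chromosome 17, 87943407 to 87958557), the epithelial adhesion molecule of ducts and progenitor-like cells, stood at 5.53, 8.76 and 13.9 CPM in set A, 0.878, 1.80 and 3.99 in set B and 1.88, 2.43 and 5.07 in controls, a ratio of 4.66. Krt7 (chromosome 15, 101308924 to 101328194), a duct keratin, had 1.5, 2.06 and 4.20 CPM in set A and 0.176, 0.355 and 1.13 in set B. Controls, at 0.639, 0.821 and 1.59 CPM, thus had a higher median of Krt7 than set B, and 8 of the 9 set B mice lay below the control median of 0.821 CPM. Krt19, its partner keratin, followed the same order with medians of 2.46, 0.474 and 0.921 CPM in set A, set B and controls. Neither keratin passed the test over all model mice (Krt7 edgeR adjusted p = 0.458, Krt19 0.715). The tight junction genes Cldn4 and Cldn7 were 4.65-fold and 4.34-fold higher in set A, with set B medians of 0.139 and 0.444 CPM below the control medians of 0.199 and 0.759 CPM.

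Surface and secreted duct proteins followed. Tspan8 (chromosome 10, 115652737 to 115685798), a tetraspanin of epithelial membranes, had 4.63, 8.65 and 15.3 CPM in set A, 0.732, 1.27 and 3.30 in set B and 0.781, 1.09 and 2.18 in controls, the largest ratio of the list at 6.38. Spp1 (chromosome 5, 104582984 to 104588916), osteopontin, a secreted phosphoprotein made by duct cells and by lipid-laden macrophages, had 176, 303 and 403 CPM in set A, 34.7, 67.8 and 136 in set B and 35.1, 40.4 and 69.8 in controls. Set A was 4.46-fold higher for Spp1, and all 9 of its mice stood above set B and controls. Cd24a, a mucin-like surface protein, was 3.73-fold higher in set A (7.17 to 16.0 against 1.96 to 5.51 CPM), and Muc1, a membrane mucin, 3.03-fold (2.10 to 5.15 against 0.681 to 1.55 CPM). The secretin receptor Sctr, which drives bicarbonate secretion in ducts, was low everywhere, at 0.342, 0.527 and 1.03 CPM in set A and 0.0273, 0.0928 and 0.236 in set B, without overlap.

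Transcription factors of the duct list differed by unequal amounts. Ehf and Elf3, epithelial ETS factors, were 4.06-fold and 2.19-fold higher in set A without overlap. Sox9, a factor of duct and periportal hybrid cells, had 3.38, 5.49 and 7.27 CPM in set A and 1.61, 2.64 and 3.85 in set B, so the sets overlapped, and controls had 2.63, 4.36 and 5.14 CPM. Of the 24 duct list genes, 21 had a ratio above 1 and 3 below. The 3 exceptions were Krt23, described above with the markers, Slc4a2, the duct anion exchanger, at a ratio of 0.983, and Aqp1. Aqp1, a water channel of ducts and of endothelium, was 1.76-fold higher in set B. Over all model mice against controls, 11 of the 24 list genes were called higher, 1 lower and 12 neither by the edgeR test (31.2% higher and 28.8% lower over all genes).

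Markers of gallbladder and mucous epithelium, another possible source of epithelial RNA in a liver sample, were mostly near zero. Of 13 matched genes, 8 had a median below 0.1 CPM in the model mice and 4 passed the filter. Their summed level was 95.0, 136 and 222 CPM in set A and 57.0, 90.9 and 128 in set B, most of it Aqp8, a water channel that hepatocytes also make (116 and 72.2 CPM by median). Of 14 pancreas genes, 12 had a median below 0.1 CPM, and their sums ran from 10.2 to 14.3 CPM in set A and from 7.66 to 12.7 in set B. The part of sampled tissue type in the duct gene difference was not tested.

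**Figure D2:**
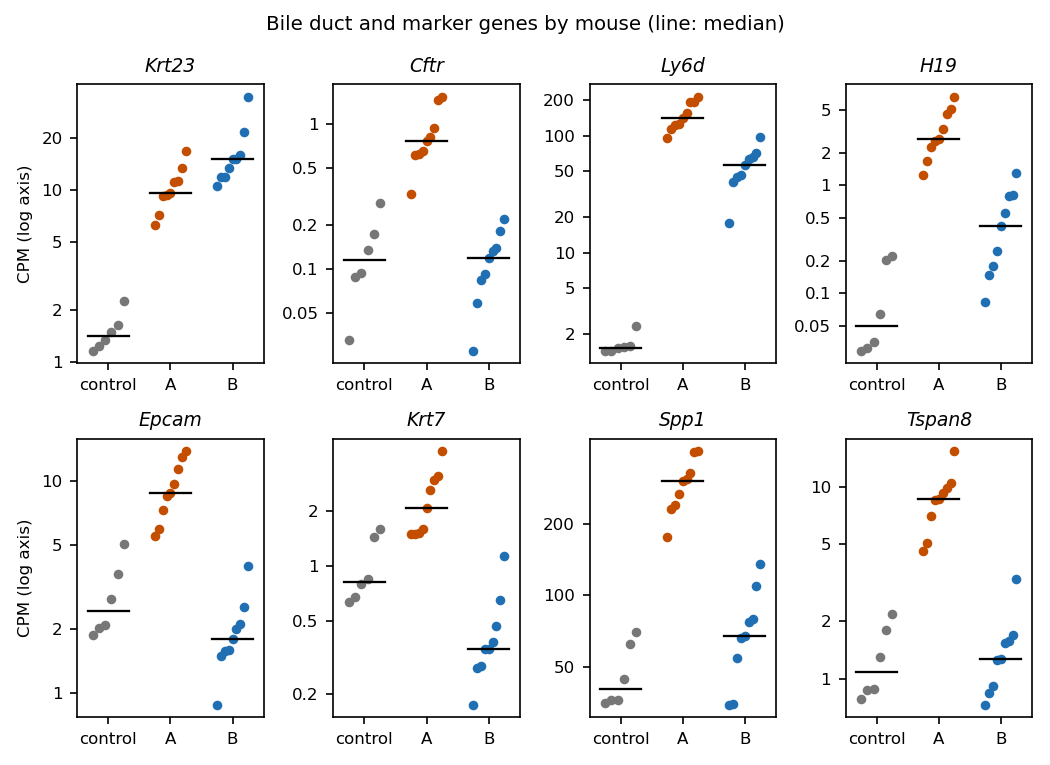
CPM (log axis) of the 4 markers and of Epcam, Krt7, Spp1 and Tspan8 in each control, set A and set B mouse, with the median as a line. Set A lies above set B without overlap in Cftr, Epcam, Krt7, Spp1 and Tspan8, and Krt23 alone has its higher median in set B.

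Beyond the duct list, the genes with the largest ratios and a median of at least 5 CPM in set A mixed epithelial and metabolic functions. Shc2 (chromosome 10, 79453885 to 79473752), a signalling adaptor of receptor tyrosine kinases, had 4.56, 9.31 and 13.4 CPM in set A, 0.194, 1.12 and 1.67 in set B and 0.147, 0.217 and 0.298 in controls, the largest ratio of this group at 7.69. Prss8 (chromosome 7, 127524888 to 127529276), prostasin, a membrane serine protease of epithelia, had 9.52, 14.4 and 17.6 CPM in set A and 1.67, 2.11 and 3.92 in set B. Controls lay between the sets for Prss8, at 3.94, 5.87 and 7.94 CPM, and it was not called over all model mice (edgeR adjusted p = 0.513). St14, matriptase, the protease that acts with Prss8, was 4.47-fold higher in set A, and Spint1, their inhibitor, 3.54-fold, both without overlap.

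Structural and trafficking genes were also in this group. Pls1, an actin bundler of microvilli, had 4.48 to 7.43 CPM in set A and 0.111 to 1.51 in set B, a ratio of 6.08, and Gipc2, a PDZ-domain scaffold, 3.10 to 12.6 and 0.0833 to 1.67 CPM, a ratio of 6.11. Sdcbp2, a syntenin-family scaffold, had 9.77, 16.0 and 20.5 CPM in set A, 0.25, 3.66 and 6.77 in set B and 0.0314, 0.133 and 0.270 in controls, and in set B model mouse 10 alone lay inside the control range. Fam83a, linked to EGF receptor signalling, showed the same order with medians of 18.1, 4.61 and 0.689 CPM. Rragd, a RagD GTPase that carries nutrient signals to mTORC1 at the lysosome, was 4.90-fold higher in set A (9.92 to 22.2 against 1.56 to 4.87 CPM). Aqp7, a glycerol channel, had medians of 5.60, 1.23 and 0.0710 CPM in set A, set B and controls, and Scara3, a scavenger receptor family member, 16.9, 4.26 and 6.78 CPM.

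Further genes without overlap are named here after their values were seen. Mmp7, matrilysin, an epithelial matrix protease, had the largest ratio of all genes without overlap, 9.71, at 0.491, 2.45 and 6.60 CPM in set A, 0.0278, 0.162 and 0.393 in set B and 0.314, 0.599 and 1.37 in controls. Set B was thus below the control median in all 9 mice for Mmp7. Foxj1, the regulator of motile cilia, was 6.53-fold higher in set A at a median of 1.71 CPM, and Klf5, a factor of gut and duct epithelium, 2.99-fold at 0.592 CPM. Sox4, a factor of immature epithelia, had 4.17, 5.41 and 8.33 CPM in set A and 1.31, 1.67 and 2.94 in set B. Ephb2, an ephrin receptor kinase near zero in controls (0.00 to 0.0587 CPM), had 12.5, 17.7 and 26.0 CPM in set A and 1.17, 6.05 and 9.48 in set B, a ratio of 2.89.

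**Figure D3:**
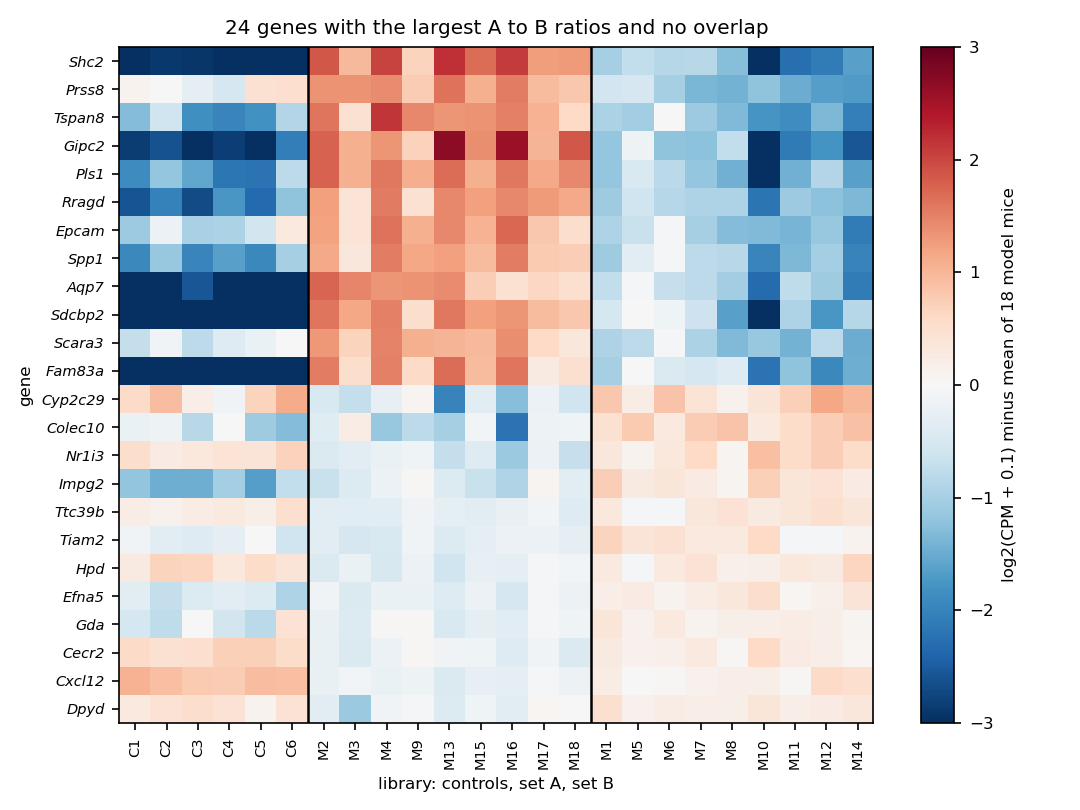
Heat map of log2(CPM + 0.1) minus the mean of the 18 model mice, for the 12 genes with the largest ratio in each direction among those without overlap and with a median of at least 5 CPM in the higher set; columns are controls, set A and set B, and colours stop at -3 and 3. The upper 12 genes span wider differences than the lower 12, and controls resemble set B, set A or neither depending on the gene.

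Genes of epithelial injury and ductular reaction leaned the same way with smaller ratios. Of 25 filtered, 23 had the higher median in set A, 6 did so without overlap (1.43% over all genes) and 7 by 2-fold (2.37% over all genes), with a median log2 ratio of 0.83. Anxa2, a membrane-binding annexin, had 109, 139 and 193 CPM in set A, 29.0, 76.9 and 95.6 in set B and 3.60, 4.69 and 5.93 in controls, and S100a11, a calcium-binding partner of annexins, 28.6, 39.7 and 61.1, 3.42, 16.6 and 27.9 and 1.69, 2.31 and 2.73 CPM. Both rose over all model mice (edgeR adjusted p = 9.59e-11 and 6.68e-07), and every mouse of either set stood above every control. Over all model mice, 19 of the 25 genes were called higher and 2 lower by the edgeR test, beside 31.2% and 28.8% over all genes. Itgb6, the epithelial integrin chain that activates TGF-beta, was 5.16-fold higher in set A, with the set B median below the control median. The hepatocyte keratins Krt8 and Krt18 were 1.66-fold and 1.53-fold higher in set A, with overlap.

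The signalling lists that govern duct fate had smaller median ratios than the duct list. Of 15 YAP and TAZ genes, 10 had the higher median in set A, with a median log2 ratio of 0.28. Ankrd1 (0.654, 0.900 and 2.14 against 0.0546, 0.176 and 0.367 CPM) and Ajuba (12.8, 17.3 and 26.3 against 5.08, 7.21 and 10.8 CPM) did not overlap and were 2-fold apart, 2 of 15 beside 1.43% and 2.37% over all genes, while the coactivators themselves had ratios of 0.967 (Yap1) and 0.914 (Wwtr1). None of the 9 Notch genes was without overlap or 2-fold apart, and their median log2 ratio was 0.08. Over all genes, 1.43% were without overlap towards set A and 0.183% towards set B, and 2.37% and 0.521% were 2-fold apart. At such shares a short list can hold none without differing from genes at large, here and in the lists below. Jag1, the ligand that drives duct fate, had the largest ratio of them at 1.49, and Hes1, a target, stood at 1.06.

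Macrophage genes were higher in set A but overlapped. All 12 genes of lipid-associated macrophages, the cells that gather around steatotic hepatocytes, had the higher median in set A, with a median log2 ratio of 0.99. Of the 12, 6 were at least 2-fold higher there (2.37% over all genes). Trem2, their lipid receptor, had 7.79, 18.6 and 27.7 CPM in set A, 1.44, 9.10 and 14.5 in set B and 0.101, 0.267 and 0.472 in controls, and Gpnmb, a lysosomal glycoprotein, 29.2, 93.0 and 141, 4.08, 48.0 and 62.8 and 0.0676, 0.122 and 0.284 CPM. The sets overlapped for both, and model mouse 10 was lowest of set B. Only Spp1, Cd63 and Cd9 of the list were without overlap (1.43% over all genes), and all 3 are also expressed by epithelium. Cd63, a lysosomal tetraspanin, had 19.9, 39.4 and 43.2 CPM in set A and 3.75, 12.5 and 18.7 in set B. Over all model mice, 11 of the 12 were called higher and none lower by the edgeR test, beside 31.2% and 28.8% over all genes.

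Of 18 general macrophage and monocyte genes, 17 had the higher median in set A, none without overlap, with a median log2 ratio of 0.60. Adgre1, the classical macrophage surface marker, had a ratio of 1.04, and Ms4a7, a gene of monocyte-derived macrophages, was 2.98-fold higher in set A. Kupffer cell genes had a median log2 ratio of -0.40 over 10 genes, towards set B, but their summed level had the higher median in set A (460.3, 732 and 939.5 CPM against 539, 693 and 834 in set B as lowest, median and highest). Marco and Cd163, both scavenger receptors, were 2.42-fold and 2.37-fold higher in set B, with wide overlap (0.334 to 30.3 and 1.23 to 50.6 CPM for Marco). T and NK cell genes had a median log2 ratio of 0.02 over 19 genes, neutrophil genes 0.20 over 7 and chemokines 0.15 over 22, with none without overlap.

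Most matrix genes had their higher median in set A. Of 32, 26 had the higher median there and 7 were at least 2-fold higher (2.37% over all genes), none without overlap. The median log2 ratio was 0.51. The list's summed level leaned the other way, with a lowest, median and highest value of 2097, 2378 and 2916 CPM in set A, 2162, 2709.9 and 2878 in set B and 2139, 2583 and 3263 in controls. Col1a1, the alpha-1 chain of type I collagen, had 19.9, 34.6 and 48.0 CPM in set A, 2.89, 16.1 and 27.6 in set B and 0.507, 1.59 and 3.65 in controls. Eln, elastin, and Loxl1, which crosslinks it, had ratios of 2.62 and 2.59, and Timp1, an inhibitor of matrix proteases, 2.25. Stellate cell genes as a list did not follow, with a median log2 ratio of -0.05 that becomes positive with library totals alone. Acta2, smooth muscle actin of activated stellate cells, and Myh11, a smooth muscle myosin, had the higher medians in set B, by 1.88-fold and 2.34-fold, with overlap.

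Endothelial genes were higher in set B, 14 of 16 by median, with a median log2 ratio of -0.54 and no gene without overlap. Over all model mice, 14 of the 16 were called higher and none lower by the edgeR test, beside 31.2% and 28.8% over all genes. Clec4g, a lectin of liver sinusoids, had 5.57, 12.0 and 23.7 CPM in set A, 20.9, 27.9 and 33.3 in set B and 6.88, 9.89 and 15.7 in controls. Kdr, the VEGF receptor 2 gene, had 4.14, 9.39 and 16.0 CPM in set A, 13.9, 20.5 and 27.8 in set B and 5.50, 7.86 and 12.4 in controls. Set A had its median inside the control range for both, and the sets overlapped in the upper mice of set A and the lower mice of set B. Hhip, a hedgehog-binding protein, had the largest ratio of the genes without overlap on the set B side (3.70-fold, 0.629 to 2.05 against 0.0557 to 0.545 CPM), named after its value was seen.

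On the set B side, the genes of at least 5 CPM without overlap included enzymes and secreted proteins of liver. Cyp2c29 (chromosome 19, 39257849 to 39319157), an arachidonate and drug oxidase, had 140.4, 412 and 591 CPM in set A, 612, 929 and 1264 in set B and 518, 869 and 1215 in controls, 2.26-fold higher in set B. Nr1i3 (chromosome 1, 171041539 to 171048270), the CAR receptor gene, had 21.2, 35.1 and 42.4 CPM in set A, 48.7, 67.7 and 86.9 in set B and 54.7, 61.0 and 74.9 in controls. For Nr1i3 all 9 mice of set A were also below every control, and set B was 1.93-fold above set A. Colec10 (chromosome 15, 54274170 to 54329754), a collectin secreted by liver, was different: set A (1.87, 7.02 and 10.6 CPM) was near controls (3.61, 6.46 and 9.05) and set B (11.1, 15.1 and 16.6) above them.

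Amino acid and base catabolism came next. Hpd (chromosome 5, 123309870 to 123320790), the dioxygenase of tyrosine breakdown, had 1372, 1741 and 1998 CPM in set A and 2010.5, 2515 and 3233 in set B, and fell over all model mice (log2 fold change -0.44, SE 0.14, edgeR adjusted p = 0.00653). Dpyd, which degrades pyrimidines, had 181, 355 and 403 CPM in set A, 428, 458 and 543 in set B and 419.7, 524 and 563 in controls, and Gda, guanine deaminase, 1.31-fold more in set B. Cxcl12, a chemokine that attracts CXCR4-bearing cells, showed a descending order from controls (428, 474 and 524 CPM) through set B (249, 284 and 377) to set A (186, 220.1 and 241). Ttc39b, which acts on sterol handling, had a ratio of 1.57, Tiam2, an exchange factor for Rac, 1.51, Efna5, an ephrin ligand, 1.33, Cecr2, a chromatin factor, 1.29, and Impg2, a proteoglycan best known from retina, 1.70, all as set B over set A.

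The promoters of these genes were read for a short motif, the AP-1 element TGANTCA, on both strands, in the 250 bases before the start (RefSeq, GRCm38.p6). The AP-1 element stood in 10.2% of 167 promoters of genes higher in set A without overlap and in 4 of 21 of those higher in set B, against 4.72% of 11327 filtered genes and 6.87% of 27025 promoters in the table. Of the 24 genes with the largest ratios, 18 had a promoter there and 4 held an AP-1 element, 1 from the set A side (Sdcbp2) and 3 from the set B side (Nr1i3, Impg2 and Hpd). Another motif was also searched and is not reported here. The 4 were picked after the matches were seen and are shown because the element occurs on both sides of the comparison, 5′ to 3′ on the gene's strand with the element in capitals.
Sdcbp2 (chr2:151572373-151572622, plus strand): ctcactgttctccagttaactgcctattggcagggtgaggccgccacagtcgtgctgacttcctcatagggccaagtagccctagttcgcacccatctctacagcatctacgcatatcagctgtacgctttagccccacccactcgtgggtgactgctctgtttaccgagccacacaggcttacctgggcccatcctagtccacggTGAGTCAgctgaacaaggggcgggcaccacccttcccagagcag
Nr1i3 (chr1:171213720-171213969, plus strand): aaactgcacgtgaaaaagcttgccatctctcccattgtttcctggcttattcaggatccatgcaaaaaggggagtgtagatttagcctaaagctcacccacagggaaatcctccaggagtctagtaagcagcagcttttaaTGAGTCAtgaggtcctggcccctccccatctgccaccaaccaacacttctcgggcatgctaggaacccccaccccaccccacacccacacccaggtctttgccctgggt
Impg2 (chr16:56204063-56204312, plus strand): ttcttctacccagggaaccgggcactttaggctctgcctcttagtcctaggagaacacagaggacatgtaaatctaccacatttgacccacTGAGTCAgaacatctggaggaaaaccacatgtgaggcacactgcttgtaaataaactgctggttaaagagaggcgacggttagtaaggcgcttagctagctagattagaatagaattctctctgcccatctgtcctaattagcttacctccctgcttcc
Hpd (chr5:123182724-123182973, minus strand): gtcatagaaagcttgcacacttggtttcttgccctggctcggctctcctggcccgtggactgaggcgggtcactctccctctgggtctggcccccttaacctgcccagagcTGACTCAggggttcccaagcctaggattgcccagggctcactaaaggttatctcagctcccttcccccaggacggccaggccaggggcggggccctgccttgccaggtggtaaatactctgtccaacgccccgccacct
A match of letters describes the sequence and is not a measured site.

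The cytochrome P450 list leaned to set B as a whole. Of 35 genes of families 1 to 3, 31 had the higher median in set B, and the median log2 ratio was -0.39. Of these, 5 were 2-fold higher there (0.521% over all genes) and 1, Cyp2c29, was without overlap (0.183%). The choice of the sets already used P450 levels, so these shares are no independent result. Over all model mice, 8 of the 35 were called higher, 17 lower and 10 neither by the edgeR test, beside 31.2% higher and 28.8% lower over all genes. The list's sum was 21749.9, 26316 and 31599.6 CPM in set A, 27767, 34573 and 40156 in set B and 33308, 42635 and 49006 in controls. Within the Cyp2c cluster, Cyp2c54 (42.0, 106 and 172 CPM in set A, 143, 261 and 456 in set B) and Cyp2c37 (69.0, 230.1 and 418 and 316, 548 and 891 CPM) were 2.46-fold and 2.38-fold higher in set B. Cyp1a2, the caffeine oxidase, was 1.73-fold higher in set B, and Por, the reductase that feeds electrons to all of them, 1.52-fold. Cyp3a57, which is outside the list and is named after its value was seen, was higher in set A without overlap (0.409 to 0.977 against 0.00 to 0.285 CPM, a ratio of 3.17). Cyp3a11, the main mouse counterpart of human CYP3A4, also went against the lean to set B, at a ratio of 1.23 with set A over set B. Cyp2b9, one of the Cyp2b genes, had 3.26, 35.7 and 147 CPM in set A and 25.5, 103 and 166 in set B, with a wide overlap. Controls had 0.00, 0.0124 and 0.372 CPM of Cyp2b9. Cyp2b, Cyp2c and Cyp4a genes have near-identical copies, and no source used here says how shared reads were assigned, so single members are uncertain.

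Conjugation enzymes and other CAR or PXR targets had a median log2 ratio of -0.17, with 23 of 30 higher in set B by median. Sult2a8, a bile acid sulfotransferase of male liver, was 2.51-fold higher in set B (235 to 631 against 50.9 to 311 CPM), while Nr1i2, the PXR gene, had a ratio of 1.06. Gstm3, a glutathione transferase, was the exception, at 75.1, 119 and 206 CPM in set A, 9.14, 55.6 and 100.3 in set B and 4.22, 8.84 and 21.7 in controls. In the Cyp4 family, whose enzymes oxidise the far end of fatty acids, Cyp4a14 had 339.9, 1108 and 1643 CPM in set A, 1163, 2391 and 7905 in set B and 6512, 6814 and 9432 in controls, and Cyp4a10 888, 1452 and 1935, 1372, 3088 and 4061 and 3161, 4151 and 4925 CPM. Set A was the lower of the model sets for both, and both fell over all model mice (edgeR adjusted p = 2.68e-04 and 0.00184).

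**Figure D4:**
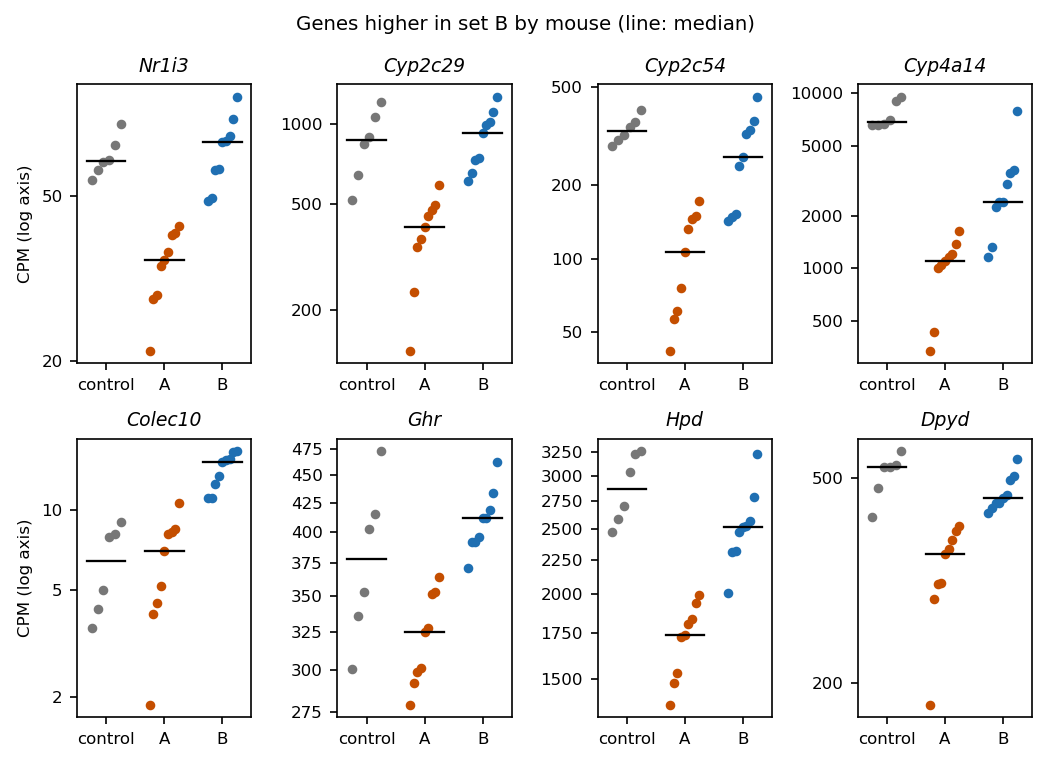
CPM (log axis) of Nr1i3, Cyp2c29, Cyp2c54, Cyp4a14, Colec10, Ghr, Hpd and Dpyd in each control, set A and set B mouse, with the median as a line. All 8 have the higher median in set B, and the sets overlap for Cyp2c54 and Cyp4a14 only.

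Other genes of fatty acid burning followed the Cyp4a genes. Of 24 genes of oxidation and ketone formation, 23 had the higher median in set B, with a median log2 ratio of -0.27. Acot1 and Acot3, acyl-CoA thioesterases induced through PPAR-alpha, were 2.99-fold and 3.00-fold higher in set B (44.5 to 281 against 13.9 to 63.4 CPM for Acot1). Ppara itself had 29.0, 65.5 and 109.8 CPM in set A and 59.4, 98.8 and 124 in set B, a ratio of 1.51. Cpt1a, the gate of mitochondrial fatty acid entry, was 1.16-fold higher in set B. None of the 24 was without overlap (1.43% towards set A and 0.183% towards set B over all genes).

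Fatty acid synthesis did not lean as a list, with a median log2 ratio of 0.01 over 19 genes, but single members were higher in set A. Thrsp, a lipogenic regulator, had 42.1, 69.6 and 121 CPM in set A, 9.05, 26.5 and 47.3 in set B and 7.60, 17.4 and 40.1 in controls, and Fasn, fatty acid synthase, 59.0, 84.8 and 110.0, 36.2, 43.4 and 73.6 and 43.1, 47.6 and 80.6 CPM. Pklr, the liver pyruvate kinase, and Elovl7, a fatty acid elongase, were 1.40-fold and 3.62-fold higher in set A without overlap. Scd1, the main desaturase, had a ratio of 0.902 with overlap, and Srebf1, the regulator of the pathway, 1.00. Cholesterol synthesis genes had a median log2 ratio of 0.11, with Sqle and Fdps higher in set A without overlap.

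Sex-biased liver genes also differed in level. Of 14 genes known to be higher in female liver, 11 had the higher median in set B (median log2 ratio -0.77), as had 14 of 21 known to be higher in male liver (-0.15, or -0.04 with library totals alone). The summed level of the male list had its higher median in set A, at 4831, 8715 and 15480.3 CPM against 5619, 7736 and 13217 in set B as lowest, median and highest. Mup7, a major urinary protein gene of male liver, had 0.0909, 7.43 and 69.2 CPM in set A, 8.34, 63.9 and 1567 in set B and 1972, 4091 and 6237 in controls. Every model mouse was below every control for Mup7, and the overlap between the sets was wide. Mup genes have near-identical copies, so this member is uncertain. Ghr, the growth hormone receptor gene, was 1.27-fold higher in set B without overlap (371 to 462 against 279 to 364 CPM), and Cish, a feedback inhibitor induced by growth hormone, 2.5-fold higher in set A with overlap.

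Hepatocyte identity genes differed by small ratios. Of 21, 15 had the higher median in set B, with a median log2 ratio of -0.15, none without overlap and none 2-fold apart. Alb, albumin, had 40830.2, 55090.3 and 72421 CPM in set A, 54081, 65887 and 96494 in set B and 86859, 109479.8 and 151248 in controls, and Hnf4a, the master regulator of hepatocytes, 475, 529 and 603, 565, 630.2 and 736 and 875, 1051 and 1441 CPM. By median the order for both was controls, then set B, then set A. Pericentral genes had a median log2 ratio of -0.31 over 17 genes and periportal genes -0.24 over 15, so genes of both lobule zones leaned to set B. Oat, ornithine aminotransferase of pericentral cells, was 2.04-fold higher in set B, and Cdh1, E-cadherin, a periportal and duct gene, 3.07-fold higher in set A without overlap. For Cdh1, set A (32.8 to 61.6 CPM) lay inside the control range (28.3 to 70.9 CPM), and set B (9.22 to 24.0 CPM) lay below every control.

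Bile acid genes leaned slightly to set B, 21 of 25 by median, with a median log2 ratio of -0.19. Slc51b, a subunit of the bile acid exporter on the blood side of cells, was the exception: it was 3.13-fold higher in set A without overlap, at 1.38, 1.92 and 2.98 CPM in set A, 0.263, 0.546 and 1.08 in set B and 0.176, 0.234 and 0.844 in controls. Cyp7a1, which starts bile acid synthesis, stood at a ratio of 0.952, and Slc10a1, which takes bile acids up from blood, was 1.46-fold higher in set B with overlap. Abcb11, the canalicular export pump, had a ratio of 1.09 with set B over set A.

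Smaller lists filled in the picture. Fetal and tumour-linked genes, to which H19 belongs, had the higher median in set A for 10 of 15, with a median log2 ratio of 0.32 and none without overlap. Portal fibroblast and mesothelial genes had 0.72 over 6 genes, and B and plasma cell genes 0.42 over 10. Immediate early genes, which respond to handling, had 0.23 over 16, glucocorticoid and fasting genes -0.20 over 18 and ribosomal protein genes 0.19 over 20, with none without overlap in these 3 lists. Whether handling or feeding state has a part in the sets was not tested.

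Cell cycle genes were slightly higher in set A, 23 of 27 by median, with a median log2 ratio of 0.38. Ccna2, cyclin A2, was 1.59-fold higher there without overlap, at 1.53, 1.77 and 2.18 CPM against 0.778, 1.08 and 1.48, and Cdc20, an activator of mitotic exit, 2.28-fold with overlap. Ccnd1, cyclin D1, differed by 1.15-fold although it stood far above control in both sets (44.1, 38.4 and 3.94 CPM). Other lists with small median log2 ratios and no gene without overlap included those of interferon response (-0.02), acute phase (-0.10), p53 targets (0.13), NRF2 targets (0.13), integrated stress (0.24), lipid droplets (-0.12), clock genes (-0.10) and the respiratory chain (-0.02). Of these, interferon response, lipid droplets and the respiratory chain turn positive with library totals alone, and the first and last also with upper-quartile factors. The summed levels of the T and NK cell, cholesterol synthesis, fatty acid synthesis, NRF2 and acute phase lists had their higher median in the other set than the list's median ratio.

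Single mice differed within the sets. Model mouse 10 was the set B mouse nearest to control, with a summed level of lipid-associated macrophage genes of 112 CPM, inside the control range of 76.4 to 124, and of bile duct genes of 212 CPM. The other 8 mice of set B had 256 to 534 CPM of these macrophage genes. That sum includes Spp1, which is not confined to macrophages, and Trem2 and Gpnmb in model mouse 10 were above every control. Its sum of general macrophage and monocyte genes, 250 CPM, was the lowest of set B but lay above the control range of 46.7 to 109. Krt23 went against this order, since model mouse 10 had the highest level of it. So did component 2, where model mouse 10 was the lowest library at -26.8, with controls at -5.02 to 12.9. The P450 sum of model mouse 10, 32154 CPM, lay below the control range of 33308 to 49006, while that of model mouse 14, 40156 CPM, lay inside it. Model mouse 5, the set B mouse closest to set A on component 2, had the lowest P450 sum of its set (27767 CPM). Its 534 CPM of lipid-associated macrophage genes stood above the 523 CPM of model mouse 3 in set A. Model mouse 9 of set A had a bile duct sum of 511 CPM, well inside its set, and with it the highest P450 sum of that set (31599.6 CPM). The duct and P450 sums therefore placed the mice near the border in different orders.

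**Figure D5:**
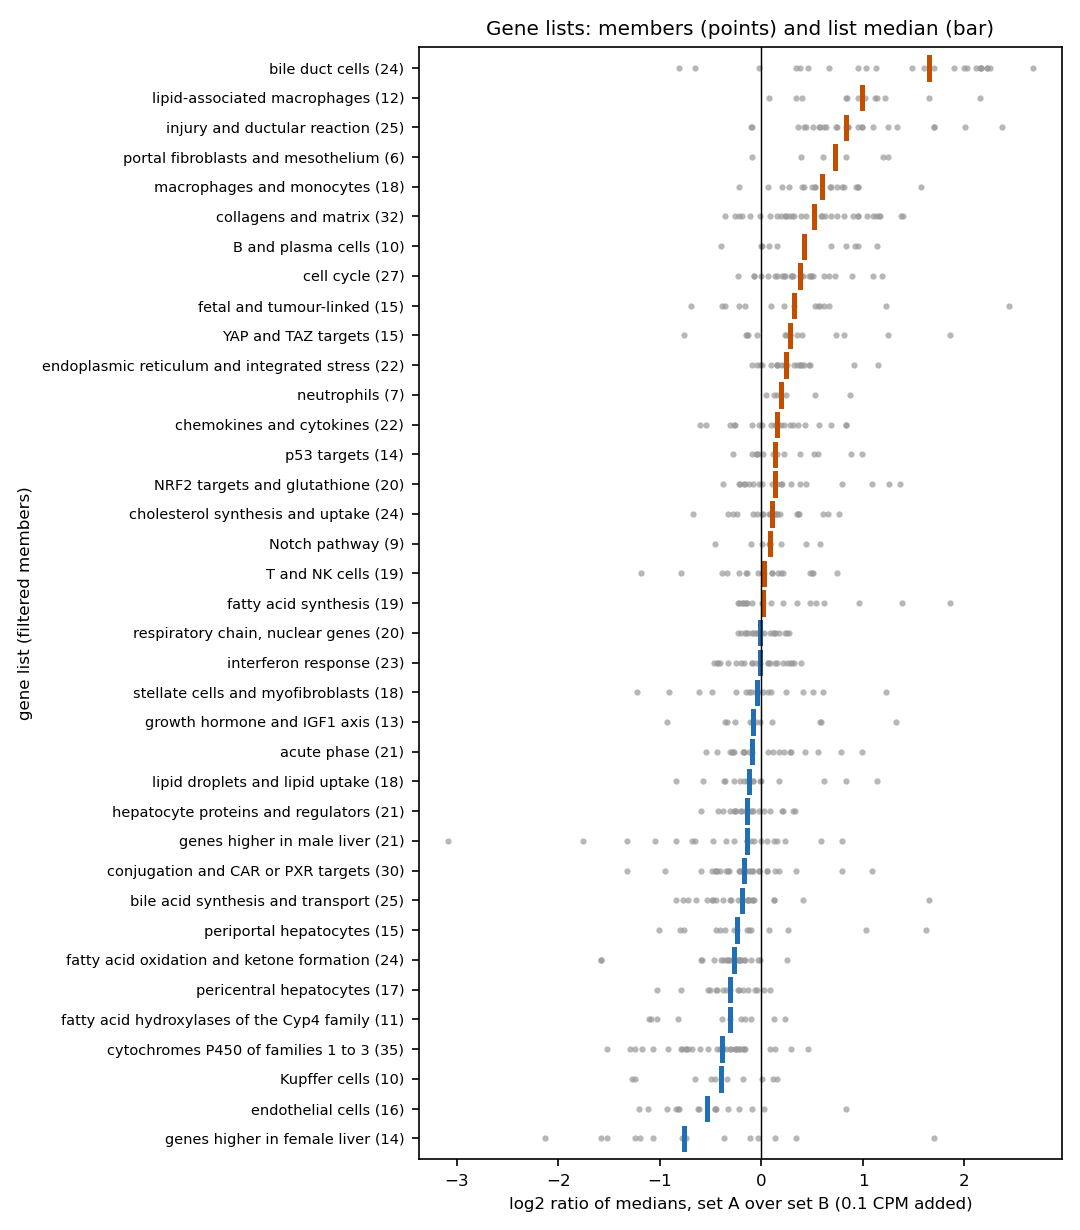
Log2 ratio of medians, set A over set B, for the filtered members of each cell type and pathway list with at least 5 of them (points; number in brackets) and the list median (bar). Bile duct cells lie farthest to the right at 1.65 and genes higher in female liver farthest to the left at -0.77.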

How the data were processed

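RNA-seq of liver from 24 mice (6 controls, 18 model mice, 1 library each) was deposited as 1 table of raw read counts per gene by the authors; the build is GRCm39 per the submitters' processing notes, and which aligner, counter or strand setting was used is not given. The labels do not say how the mice were housed or grouped, so p-values cover the spread between these libraries. Of 78298 gene IDs, 51498 had a symbol, with 99.6% of counts, and 17456 passed edgeR's expression filter. Totals were 31600129 to 58413267 counts, so 3 counts equal 0.0488 to 0.106 CPM. CPM used TMM factors (edgeR 4.0.16 in R 4.3.3). Model mice were compared with controls over all 24 libraries by edgeR's quasi-likelihood test with Benjamini-Hochberg adjustment, checked on simulated data, with DESeq2 1.42.0 as an alternative. Set A and set B were described by lowest, median and highest CPM, the ratio of medians and non-overlap. Library totals were compared by an exact permutation test. Components used log2(CPM + 0.5).

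The members of the sets and the 48 gene lists were chosen with earlier results of these data known. Genes were named as follows: the 4 markers, the 12 largest ratios in each direction among genes without overlap with a median of at least 5 CPM, the 2 largest ratios of each list, and the most abundant gene of each list for another tissue. Other genes were named after their values were seen. No 2 libraries agreed within sampling noise (smallest chi-square per degree of freedom 18.3 over 168 pairs within a group). Alternatives were other scaling factors, other filters, leaving out each model mouse, another added CPM, means in place of medians and a replicate block. Promoters came from RefSeq (GRCm38.p6), and coordinates of genes from the deposited table (GRCm39). Some items are not reported here.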

Additional observations from a re-analysis of the deposited data

Results flagged for a closer look

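In each of 84 groups of values (28 named genes in controls, set A and set B), the highest and the lowest mouse were set against the others by Dixon's criterion at the 95% level, which chance passes in about 1 of 20 groups. In 6 groups a mouse stood apart. Krt23 in set B was highest in model mouse 10, at 34.5 CPM, and Cecr2 in set B was highest in the same mouse, at 19.6 CPM. Tspan8 and Scara3 in set B were highest in model mouse 6, at 3.30 and 8.13 CPM. Dpyd in set A was lowest in model mouse 3, at 181 CPM. Ly6d in controls was highest in control mouse 2, at 2.36 CPM.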

How the results depend on the processing

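The number of genes without overlap that were higher in set B was 16 with library totals alone, against 32, and ran from 33 to 108 when each model mouse was left out. The number higher in set A stayed within 1.5 times of 249 under all 23 alternatives, with 254 to 368 when a mouse was left out. While levels are unchanged, leaving out a mouse can raise a count of genes without overlap but not lower it. Those runs therefore cannot show that either count is stable. At a mean of at least 1 CPM, 205 genes were at least 2-fold higher in set A and 59 in set B; with 0.5 CPM added, 183 and 43. Leaving out each mouse gave 370 to 459 and 75 to 107. The side of the mice on component 2 depends on the libraries: 10 of 18 with the model libraries alone and 18 with all 24. Added after seeing the data were 18 with all 24 but without duct and P450 lists, and 16 on the first component of the 18. Since the sets were chosen on component 2 of log2 CPM, these counts are no independent support for them. The log2 ratios of Krt23, Cftr, Ly6d and H19 kept their sign under 20 alternatives each. Leaving out a mouse gave -0.67 to -0.55, 1.89 to 2.08, 1.25 to 1.47 and 2.26 to 2.70. These genes were given with the sets, which were chosen on the same values, so a kept sign is no independent support.

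With library totals alone, 9404 genes were called higher and 1564 lower in model mice. A replicate block over the 12 libraries that share numbers gave 4270 and 3757, against 4529 and 4259 for those libraries without it. Same-numbered mice correlated at -0.38 to 0.10, and 1 of 6 controls correlated best with its own number. The labels do not say whether equal numbers mean a shared cage or batch, and so few correlations cannot decide it. The cause of these shifts was not tested. Genes near the floor of 3 counts, Cftr and H19 among them, are the least precise.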
